A study of Homo sapiens with 83 samples.

Results

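The 72 genes described here are the chaperonins and heat shock proteins expressed in these cells, chosen by name from the 60237 genes of the table, of which 15942 had a mean of at least 1 TPM in at least 1 of the cell lines. TPM is the abundance of a gene's transcripts per length, scaled to the same total in every library, so levels of different genes can be compared within a library. The rule took the subunits of the cytosolic chaperonin (CCT genes and TCP1), the genes named HSPA, HSPB, HSPD, HSPE, HSPH and HSP90, the J proteins (DNAJA, DNAJB and DNAJC) and the transcription factors HSF1 and HSF2. Names that end in P and a number were dropped, since most are pseudogenes, and 66 names went that way. Among the 93 names left, 21 were below 1 TPM in both lines. The rule itself uses names and levels. The members nearest to the level limit were HSPA1L (1.13 TPM, in the line where it was higher) and DNAJC28 (1.60 TPM) inside it, and HSPA12B (0.653 TPM) and HSPA6 (0.585 TPM) outside it. By role, the members were 8 subunits of the cytosolic chaperonin, 7 mitochondrial proteins, 2 cytosolic HSP90 proteins, 7 cytosolic HSP70 proteins, 3 HSP110 proteins, 2 class A, 5 class B and 19 class C J proteins, 10 proteins of the endoplasmic reticulum (ER), 6 small heat shock proteins, 2 heat shock factors and the HSP90-named pseudogene HSP90AB2P.

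RNA was sequenced from SHEP and SKNAS, human neuroblastoma cell lines with a stable N-MYC-ER transgene, in which N-MYC is joined to the hormone-binding part of the estrogen receptor. The protein is made all the time and becomes active when 4-hydroxytamoxifen (4OHT) is added. MYC-ON cells were given 4OHT and MYC-OFF cells the ethanol vehicle. After 24 h cells of all 4 groups were given dexamethasone, which brings their clocks into step. The study describes no removal of 4OHT, so in MYC-ON later collections also had a longer time since activation. Circadian time (CT) counts the hours from dexamethasone, and cells were collected every 4 h from CT24 to CT76 (to CT72 in SKNAS MYC-ON). SHEP had 2 series per condition, which makes 28 MYC-OFF and 28 MYC-ON libraries. SKNAS had 1 series per condition, with 14 MYC-OFF and 13 MYC-ON libraries. Each series is 1 experiment sampled over time, so the p-values below take libraries of the same series as replicates. In the MYC effect fits the mean of each CT is taken out. The spread left is that of the MYC-ON minus MYC-OFF difference between time points and, in SHEP, that between the 2 series. The study's repeat of the SKNAS experiment was not used here. The lines were not run as 1 experiment, so line and experiment cannot be told apart.

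Chaperones bind proteins that are not yet folded, or have lost their fold, and help them reach their native shape. HSP70 proteins bind short exposed stretches with help from J proteins, which bring clients and start ATP hydrolysis, and from exchange factors such as HSP110, which reset the cycle. HSP90 proteins act later on a chosen set of kinases and receptors, and chaperonins are barrel-shaped machines that close around a client. Mitochondria and the ER hold their own versions of these proteins. HSF1 is the transcription factor that raises the cytosolic set after heat or other protein damage, and the ER set is raised by the unfolded protein response.

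As a check of the labels, MYCN, which stands for the N-MYC of the fusion as well as the cells' own gene, was high in every group. Its mean and SD in MYC-OFF were 555 ± 70.8 TPM for SHEP and 547 ± 341 for SKNAS, and in MYC-ON 377 ± 69.5 and 365 ± 297. Since 4OHT acts on the protein, this level does not check the treatment. The SKNAS libraries stood apart in their centre: the median over genes of log2(TPM + 1) ran from 2.97 to 4.38 in MYC-OFF and from 2.76 to 4.25 in MYC-ON, against 3.93 to 4.17 in SHEP MYC-OFF and 3.93 to 4.12 in SHEP MYC-ON. It was below 3.3 in 3 SKNAS MYC-OFF and 4 SKNAS MYC-ON libraries. Some SKNAS results, mostly counts, are therefore given also after rescaling each library by the median of its ratios to the mean library. SKNAS values and names with no mention of rescaling are those without it. Of the mesenchymal neuroblastoma markers, 5 of 6 were at 1 TPM or more in SHEP MYC-OFF and 5 of 6 in SKNAS MYC-OFF (group means). Of the adrenergic neuroblast markers reported here, HAND2 and GATA3 had a mean over 1 TPM in every group and PHOX2A and ISL1 in the SKNAS groups alone, while TH and DBH, enzymes of catecholamine synthesis, were below 1 TPM in every group. The adrenergic markers over 1 TPM in SKNAS were each called lower with 4OHT there. In MYC-OFF and MYC-ON PHOX2A was at 232 ± 34.7 and 66.7 ± 24.7 TPM (-1.83 in log2(TPM + 1)) and GATA3 at 61.2 ± 18.6 and 16.1 ± 7.08 (-1.88). HAND2 was at 161 ± 48.6 and 78.9 ± 26.4 (-0.99) and ISL1 at 29.0 ± 8.41 and 14.8 ± 5.49 (-0.93). In SHEP HAND2 was called higher (0.72) and GATA3 was not called (0.12). The mesenchymal markers over 1 TPM in SKNAS had no common direction there. CD44 was called higher (0.55), FN1 (-1.76) and YAP1 (-0.91) lower, and VIM (0.10) and PRRX1 (-0.36) were not called. The leukocyte gene PTPRC was at 80.4 ± 43.1 TPM without and 21.5 ± 18.6 with 4OHT in SKNAS. There 8 of 10 leukocyte markers were below 1 TPM, and the sum of all 10 ranged from 16.9 to 141 TPM in MYC-OFF and from 6.02 to 64.9 in MYC-ON. In SHEP 8 of the 10 were below 1 TPM too, PTPRC among them. The sum was higher in SHEP, from 338 to 539 TPM in MYC-OFF and from 319 to 441 in MYC-ON, where LCP1 had means of 408 and 389 TPM. The part of these markers in the results was not tested.

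The promoters of a few members are shown because they carry the DNA elements named for MYC proteins, heat shock factors and ER stress. RefSeq (GRCh38.p14) gave a window from 250 bases before to 50 after the start for 64 of the 72 members. The E-box CACGTG, which MYC family proteins bind, was found on either strand in 9 of the 64 windows (14.1%, against 7.43% of all 27305 promoters): DNAJB9, DNAJC12, DNAJC16, DNAJC8, HSF2, HSP90B1, HSPA9, HSPD1 and HSPE1. HSPD1 and HSPE1, the barrel and the lid of the mitochondrial chaperonin, lie head to head by their RefSeq starts. They share 1 E-box, which is printed on both strands. The Gencode span given below for HSPD1 is longer and covers that of HSPE1. In the next stretches, each given 5′ to 3′ on the strand of its gene, capitals mark the E-box.
HSPD1, chr2:197500345-197500374, minus strand: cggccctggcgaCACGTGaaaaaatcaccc
HSPE1, chr2:197500345-197500374, plus strand: gggtgattttttCACGTGtcgccagggccg
HSPA9, chr5:138575403-138575432, minus strand: cgcccctcacccCACGTGgttggaggtttc

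The heat shock element was searched as GAANNTTCNNGAA on both strands and was found in 3 of the 64 windows (4.69%, against 0.487% of all promoters), those of DNAJA1, DNAJB6 and HSPA8. The ER stress element, CCAAT and CCACG with 9 bases between them, was found in 2 (3.12%, against 0.0806%), those of HSPA5 and HSP90B1. No 2 of the 3 motifs shared bases in a member's window. No window of the 7 matched chaperonin subunits held any of the 3 motifs. The windows of HSPA1A, HSPA1B, DNAJB1, HSPH1 and HSP90AA1 held no match to this spelling of the heat shock element before the start. A match is a description of the letters and no evidence of binding. In the next stretches, capitals mark the element, which in HSPA8 and HSP90B1 reads on the opposite strand.
HSPA8, chr11:123062171-123062199, minus strand: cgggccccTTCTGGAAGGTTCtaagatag
HSPA5, chr9:125241386-125241414, minus strand: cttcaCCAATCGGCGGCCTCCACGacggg
HSP90B1, chr12:103930316-103930344, plus strand: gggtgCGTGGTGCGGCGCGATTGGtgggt

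The first comparison asked how these genes differed between MYC-ON and MYC-OFF in each line. All cells carried N-MYC-ER, so here and below an effect of 4OHT itself cannot be told apart from one of active N-MYC. In SHEP the cytosolic chaperonin, the mitochondrial chaperones and both HSP90 genes were higher in MYC-ON, and the ER chaperones and most class B J proteins were lower. In SKNAS 6 of 8 chaperonin subunits and both HSP90 genes were higher, and 9 of 10 ER members and 4 of 6 small heat shock proteins were lower. Levels were compared with limma on log2(TPM + 1) with CT as a factor, and a call needed a log2 difference of 0.15 or more and an adjusted p (Benjamini-Hochberg, over all genes tested) no higher than 0.05; all differences below are MYC-ON minus MYC-OFF on this scale, given ± their standard error, while a ± beside a TPM value is the SD over libraries. In SHEP 30 of 69 members tested were higher, where 33.0% of all genes were, and 28 were lower, where 38.9% of all genes were. The median difference was 0.04 over the members and -0.04 over all genes. In SKNAS 22 of 71 were higher (13.7% of all genes) and 18 lower (34.4% of all genes), with a median of -0.01 over the members and -0.29 over all genes. After rescaling, the SKNAS median of all genes was 0.04 and 33 members were higher and 13 lower. The shares of all genes, here and below, are those without rescaling, so counts after rescaling cannot be set against them. In bulk RNA, fewer cells of a kind and less RNA per cell cannot be told apart.

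Of the 68 members tested in both lines, 14 were higher in both: CCT3, CCT4, CCT6A, CCT7, CCT8, TCP1, HSPD1, HSPE1, DNAJC19, HSP90AA1, HSP90AB1, HSPA4, HSPA14 and DNAJC2. Another 13 were lower in both: HSPA5, HSP90B1, DNAJB11, DNAJB9, DNAJC3, HSPA13, DNAJB12, DNAJB14, DNAJB2, DNAJB5, DNAJC22, DNAJC4 and HSPA2. No member was higher in SHEP and lower in SKNAS, while DNAJC12, HSPA1A, HSPA1B and HSPH1 were lower in SHEP and higher in SKNAS. The SHEP calls for HSPH1 and HSPA1B were lost with a series left out, as given below. Reads of HSPA1A and HSPA1B may have been split between them, so they may not be separate cases. With the SKNAS libraries rescaled, 24 members were higher in both lines, 9 lower in both and 5 lower in SHEP and higher in SKNAS. The share of all genes in each of these classes is not given here, so the counts only describe the members. The groups did not overlap at all for some members. In SHEP every MYC-ON library was above every MYC-OFF library for 10 members (6.11% of all genes), among them TCP1, CCT7, CCT8, HSPD1, HSPA9 and HSP90AB1, and below for 6 (6.36% of all genes), among them HSPA5, DNAJB11, DNAJC3 and HSPA13. In SKNAS it was above for 3 (2.32% of all genes), TCP1, CCT7 and HSPE1, and below for 2 (2.09% of all genes), DNAJC22 and HSPB3.

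**Figure D1:**
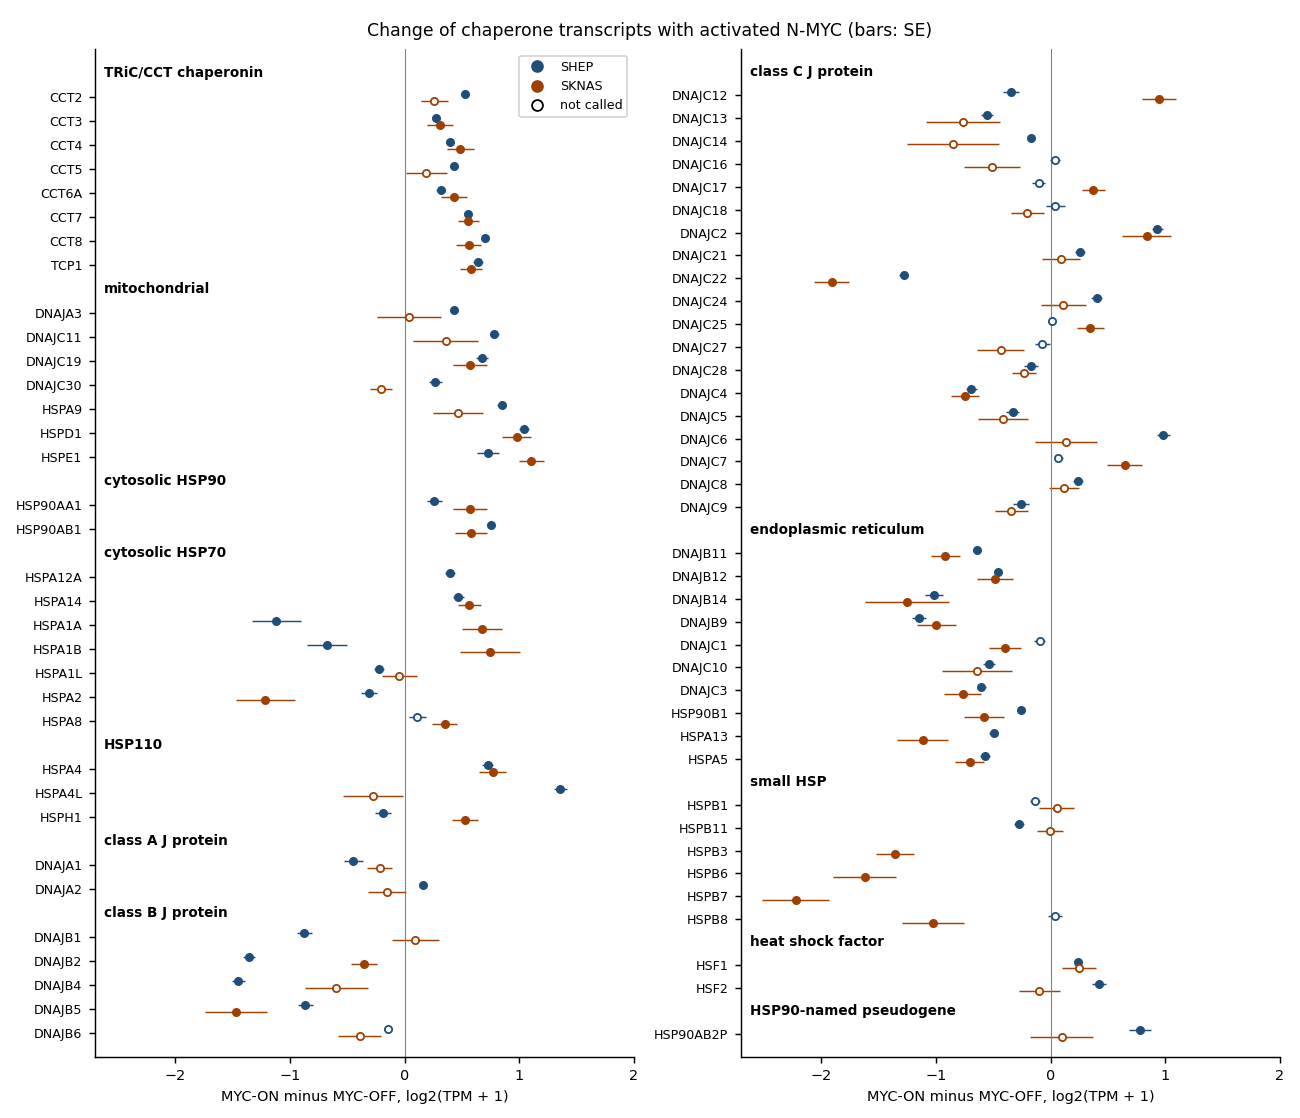
Difference MYC-ON minus MYC-OFF in log2(TPM + 1) for each member, ordered by role, in SHEP and SKNAS; filled points were called, open points were not, and bars are standard errors. All 8 chaperonin subunits lie above 0 in both lines and all 10 ER members below 0.

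The cytosolic chaperonin, known as TRiC or CCT, is a double ring of 8 different subunits that folds actin, tubulin and other proteins. All 8 subunits rose in SHEP, with a median difference of 0.48. In SKNAS 6 of 8 rose (8 of 8 after rescaling), with a median of 0.46. The summed level of the 8 went from 2262 ± 88.0 TPM (SD, n = 28) to 3169 ± 298 (n = 28) in SHEP, and from 2624 ± 199.8 (n = 14) to 3535 ± 320.4 (n = 13) in SKNAS. The subunits were of like level: the highest, CCT5, was 1.88 times the lowest, CCT4, in SHEP MYC-OFF and 1.92 times in MYC-ON. In SKNAS the span was wider, 3.0 times from TCP1 to CCT7 in MYC-OFF and 2.95 times in MYC-ON.

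CCT8 (chr21:29055805-29073797, minus strand, GRCh38) had the largest rise of the 8 in SHEP. It ranged from 206 to 258 TPM with a median of 226 in MYC-OFF and from 290.1 to 419 TPM with a median of 375 in MYC-ON. The SHEP groups did not overlap, and the difference was 0.70 ± 0.028, adjusted p = 2.64e-26. In SKNAS CCT8 ranged from 259 to 441 TPM with a median of 329 in MYC-OFF and from 383 to 678 TPM with a median of 480.1 in MYC-ON, where the groups overlapped and the difference was 0.56 ± 0.11, adjusted p = 0.000564.

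TCP1 (chr6:159778498-159789703, minus strand), the subunit the complex was named after, ranged from 189 to 246 TPM with a median of 219 in SHEP MYC-OFF and from 265 to 418 TPM with a median of 349.5 in MYC-ON. In SKNAS it ranged from 116 to 168 TPM with a median of 146 in MYC-OFF and from 177 to 249.96 TPM with a median of 230.0 in MYC-ON. Neither line had overlapping groups, and the differences were 0.64 ± 0.042, adjusted p = 2.23e-18 in SHEP and 0.58 ± 0.095, adjusted p = 0.000149 in SKNAS.

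CCT7 (chr2:73233420-73253021, plus strand) was the third subunit whose groups were apart, in both lines. In SHEP its highest MYC-OFF library was at 411 TPM and its lowest MYC-ON library at 444, with medians of 337 and 503. In SKNAS the same values were 524 and 568 TPM, with medians of 438 and 648. The difference was 0.56 ± 0.025, adjusted p = 1.16e-24 in SHEP and 0.56 ± 0.088, adjusted p = 0.00011 in SKNAS.

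The other 5 subunits overlapped between groups in each line. In SHEP CCT2 rose by 0.53 ± 0.028, CCT5 by 0.43 ± 0.035 and CCT4 by 0.40 ± 0.034, each higher in MYC-ON in at least 27 of the 28 pairs of libraries of the same CT and series. CCT6A, by 0.32 ± 0.039, and CCT3, by 0.28 ± 0.030, rose less and were higher in 26 of 28 and 25 of 28 pairs. The adjusted p of these 5 in SHEP was between 1.63e-21 and 6.2e-10. In SKNAS CCT4 (0.49 ± 0.12, adjusted p = 0.00326), CCT6A (0.43 ± 0.11, 0.00616) and CCT3 (0.31 ± 0.11, 0.0311) rose. CCT2 (0.26 ± 0.12, 0.0826) and CCT5 (0.19 ± 0.18, 0.388) did not pass. The call for CCT3 was lost without the 7 low-median SKNAS libraries, at 0.20 (adjusted p = 0.136).

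**Figure D2:**
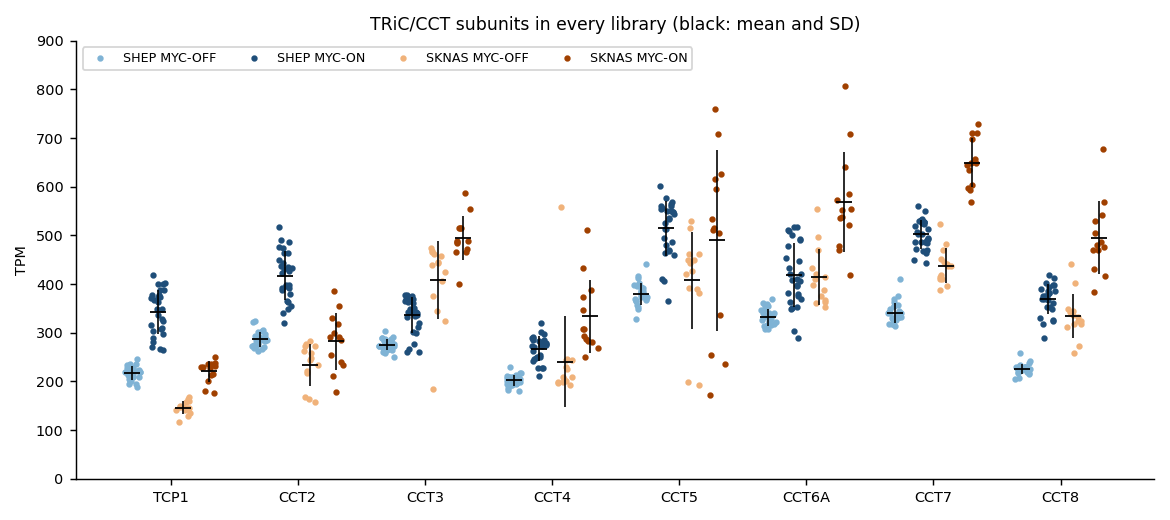
Level in TPM of the 8 TRiC subunits in every library of the 4 groups, with the group mean and SD in black. In SHEP each subunit's mean is higher in MYC-ON, and TCP1, CCT7 and CCT8 have no library in common range.

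The 7 mitochondrial members include the mitochondrial chaperonin, HSPD1 (HSP60) and its lid HSPE1 (HSP10), and the matrix HSP70 HSPA9 (mortalin), which pulls proteins in through the inner membrane. All 7 rose in SHEP, with a median of 0.73. In SKNAS 3 of 7 rose (6 of 7 after rescaling), with a median of 0.47. HSPD1 (chr2:197486584-197516737, minus strand) ranged from 436 to 549 TPM with a median of 506 in SHEP MYC-OFF and from 666 to 1233 TPM with a median of 1095 in MYC-ON. The groups did not overlap, and the difference was 1.04 ± 0.045, adjusted p = 3.92e-25. In SKNAS it ranged from 402 to 809.8 TPM with a median of 676 in MYC-OFF and from 739 to 1939 TPM with a median of 1341 in MYC-ON. These overlapped, HSPD1 was higher in MYC-ON in 13 of 13 pairs of the same CT, and the difference was 0.98 ± 0.13, adjusted p = 1.67e-05.

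HSPE1 (chr2:197500140-197503449, plus strand), whose gene overlaps that of HSPD1 on the other strand, ranged from 458 to 575 TPM with a median of 504 in SHEP MYC-OFF and from 335 to 1206 TPM with a median of 991 in MYC-ON. Some MYC-ON libraries lay below all MYC-OFF libraries, and the difference was 0.73 ± 0.098, adjusted p = 7.54e-09. In SKNAS the groups were apart, from 573 to 980.1 TPM with a median of 753 in MYC-OFF and from 1179 to 2182 TPM with a median of 1717 in MYC-ON, with a difference of 1.11 ± 0.11, adjusted p = 1.55e-06. The strand setting of the counting is not given in the sources used here, so reads in the shared stretch may count for either gene. In SHEP the ratio of HSPE1 to HSPD1 was 1.01 ± 0.050 (SD, n = 28) in MYC-OFF and 0.84 ± 0.21 (n = 28) in MYC-ON. In SKNAS it was 1.28 ± 0.57 (n = 14) in MYC-OFF and 1.41 ± 0.59 (n = 13) in MYC-ON.

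HSPA9 (chr5:138553756-138575675, minus strand) ranged from 175 to 229.7 TPM with a median of 211 in SHEP MYC-OFF and from 302 to 502 TPM with a median of 386 in MYC-ON. The groups were apart, with a difference of 0.85 ± 0.040, adjusted p = 1.56e-23. In SKNAS HSPA9 was at 211 ± 83.7 TPM in MYC-OFF and 284 ± 116 in MYC-ON, and its difference did not pass (0.47 ± 0.22, adjusted p = 0.0875). DNAJC19, a J protein of the same import motor, was 0.68 ± 0.052, adjusted p = 6.72e-16 in SHEP and 0.57 ± 0.15, adjusted p = 0.00574 in SKNAS. DNAJC11, DNAJA3 and DNAJC30 rose in SHEP by 0.79, 0.43 and 0.27 and were not called in SKNAS, at 0.36, 0.04 and -0.20.

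The cytosolic HSP90 proteins are HSP90AB1, the constant form, and HSP90AA1, the form induced by heat. HSP90AB1 (chr6:44246166-44253888, plus strand) was the most abundant member after HSPB1 in SHEP MYC-OFF. It ranged from 1363 to 1654 TPM with a median of 1516 there and from 1943 to 2849 TPM with a median of 2649 in MYC-ON. No libraries overlapped, and the difference was 0.75 ± 0.028, adjusted p = 1.21e-27. In SKNAS HSP90AB1 was at 1256 ± 301 TPM in MYC-OFF and 1895 ± 534 in MYC-ON, a difference of 0.58 ± 0.14, adjusted p = 0.00299.

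HSP90AA1 (chr14:102080742-102139699, minus strand) ranged from 621 to 878 TPM with a median of 732 in SHEP MYC-OFF and, far more widely, from 399 to 1252 TPM with a median of 979.8 in MYC-ON. It was higher in MYC-ON in 22 of 28 pairs, with a difference of 0.26 ± 0.062, adjusted p = 0.000226. The call was lost without series 1, at 0.13 (adjusted p = 0.282). In SKNAS it went from 751 ± 205 to 1138 ± 386 TPM, a difference of 0.57 ± 0.15, adjusted p = 0.00616. The ratio of HSP90AB1 to HSP90AA1 was 2.02 ± 0.14 without 4OHT and 2.90 ± 0.63 with it in SHEP, and 1.70 ± 0.19 and 1.69 ± 0.11 in the SKNAS groups (SD).

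Among the cytosolic HSP70 genes, 2 of 7 rose and 4 fell in SHEP, and in SKNAS 4 of 6 rose and 1 fell. HSPA8 (chr11:123057489-123063230, minus strand), the constant HSC70 that also uncoats clathrin vesicles, ranged from 1156 to 1639.8 TPM with a median of 1395 in SHEP MYC-OFF and from 648 to 2155 TPM with a median of 1719 in MYC-ON. The MYC-ON libraries lay both above and below the whole MYC-OFF range, and the mean difference did not pass (0.11 ± 0.076, adjusted p = 0.179). In SKNAS HSPA8 ranged from 485 to 1032 TPM with a median of 799.8 in MYC-OFF and from 744 to 1332 TPM with a median of 998 in MYC-ON, a difference of 0.35 ± 0.11, adjusted p = 0.0159.

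HSPA1A (chr6:31815543-31817946, plus strand) and HSPA1B (chr6:31827738-31830254, plus strand) encode the stress-induced HSP70. Their sequences are nearly identical, so reads may have been split between them and the values of each are uncertain. HSPA1A ranged from 35 to 69.8 TPM with a median of 57.3 in SHEP MYC-OFF and from 4.81 to 94.0 TPM with a median of 34.2 in MYC-ON. It was lower in MYC-ON in 24 of 28 pairs, with a difference of -1.12 ± 0.21, adjusted p = 6.9e-06. In SKNAS it ranged from 94.0 to 241 TPM with a median of 202 in MYC-OFF and from 169 to 535 TPM with a median of 319.6 in MYC-ON, higher in 12 of 13 pairs, with a difference of 0.68 ± 0.18, adjusted p = 0.0054. HSPA1B moved likewise, by -0.67 ± 0.18, adjusted p = 0.000621, in SHEP and by 0.74 ± 0.26, adjusted p = 0.0281, in SKNAS. Its SHEP call was lost without series 2, at -0.28 (adjusted p = 0.287).

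HSPA14, which sits with DNAJC2 on the ribosome and receives new chains, rose in SHEP by 0.47 ± 0.049 (adjusted p = 6.36e-12) and in SKNAS by 0.56 ± 0.10 (0.000356). HSPA2, an HSP70 best known from the testis, fell from 26.3 ± 11.9 TPM to 10.0 ± 4.90 in SKNAS (-1.21 ± 0.26, adjusted p = 0.00143). In SHEP it was near 2.26 TPM and was called lower at -0.31 ± 0.069, a call lost without series 2 at -0.14 (adjusted p = 0.192).

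The HSP110 proteins are exchange factors that free HSP70 of ADP. HSPA4 (chr5:133052013-133106449, plus strand) ranged from 141 to 191 TPM with a median of 159 in SHEP MYC-OFF and from 181 to 359 TPM with a median of 259.8 in MYC-ON. It was higher in MYC-ON in every pair of both lines, by 0.73 ± 0.048, adjusted p = 3.71e-18, in SHEP and by 0.77 ± 0.12, adjusted p = 7.96e-05, in SKNAS. HSPA4L (chr4:127781821-127840733, plus strand) had the largest rise of all members in SHEP, from 5.05 ± 1.19 to 14.5 ± 2.57 TPM (1.36 ± 0.058, adjusted p = 3.73e-25), with no overlap. In SKNAS it was at 2.08 ± 1.34 and 1.65 ± 1.67 TPM and was not called (-0.27 ± 0.26, adjusted p = 0.402). HSPH1 (chr13:31134973-31162388, minus strand), the heat-induced member, ranged from 99.1 to 131 TPM with a median of 115 in SHEP MYC-OFF and from 52.3 to 149 TPM with a median of 113 in MYC-ON, a difference of -0.19 ± 0.067, adjusted p = 0.0103. That call was lost without series 1 (-0.22), without series 2 (-0.16) and after rescaling (-0.14). In SKNAS HSPH1 went from 61.3 ± 10.2 to 91.7 ± 19.1 TPM, higher in 13 of 13 pairs (0.53 ± 0.12, adjusted p = 0.00164).

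The heat shock factors rose in SHEP. HSF1 went from 114 ± 6.33 to 135 ± 10.1 TPM (0.24 ± 0.027, adjusted p = 5.81e-11), and HSF2, a related factor with a role in development, from 13.3 ± 1.79 to 18.4 ± 4.04 TPM (0.42 ± 0.058, adjusted p = 1.13e-08). Neither was called in SKNAS, where HSF1 was at 68.7 ± 18.2 and 79.4 ± 18.8 TPM (0.25 ± 0.15, adjusted p = 0.182) and HSF2 at 10.1 ± 3.72 and 9.38 ± 4.81 (-0.10 ± 0.18, adjusted p = 0.669).

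The 10 ER members went the other way. In SHEP 9 of 10 fell and none rose, with a median of -0.55, and in SKNAS 9 of 10 fell and none rose, with a median of -0.74. After rescaling 6 of the 10 fell in SKNAS, with a median of -0.39, and 5 without the low-median libraries. Their summed level in SHEP was 1431 ± 111 TPM in MYC-OFF and 1049 ± 79.5 in MYC-ON, and in SKNAS 1298 ± 249 and 819.7 ± 209 (mean and SD). HSPA5 (chr9:125234853-125241382, minus strand), the ER HSP70 known as BiP, ranged from 326 to 615 TPM with a median of 353 in SHEP MYC-OFF and from 208 to 282 TPM with a median of 255 in MYC-ON. The groups did not overlap, and the difference was -0.57 ± 0.046, adjusted p = 2.22e-15. In SKNAS HSPA5 ranged from 182 to 442 TPM with a median of 323 in MYC-OFF and from 108 to 269 TPM with a median of 217 in MYC-ON, where the groups overlapped and MYC-ON was lower in 13 of 13 pairs (-0.71 ± 0.13, adjusted p = 0.000339).

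HSP90B1 (chr12:103930107-103953931, plus strand), the ER HSP90 known as GRP94, fell less. It ranged from 565 to 753 TPM with a median of 629 in SHEP MYC-OFF and from 429 to 663 TPM with a median of 511 in MYC-ON, a difference of -0.26 ± 0.036, adjusted p = 1.08e-08. In SKNAS the difference was -0.58 ± 0.17, adjusted p = 0.0123, which became -0.32 (adjusted p = 0.0981) without the low-median libraries. DNAJB11, the J protein that works with BiP on new chains, was lower in every pair of both lines, from 80.1 ± 9.38 to 50.9 ± 5.15 TPM in SHEP (-0.64 ± 0.038, adjusted p = 5.52e-20) and from 151 ± 25.7 to 81.1 ± 19.9 in SKNAS (-0.92 ± 0.13, adjusted p = 3.35e-05). DNAJB9, a J protein that holds the stress sensor IRE1 back, fell by 1.15 ± 0.061, adjusted p = 1.43e-21, in SHEP and was at -1.0 ± 0.17, adjusted p = 0.000215, in SKNAS. DNAJB14, which is anchored in the ER membrane, was at -1.01 ± 0.080, adjusted p = 1.29e-15, in SHEP and -1.25 ± 0.37, adjusted p = 0.0117, in SKNAS, where the call was lost without the low-median libraries (-1.30, adjusted p = 0.078). DNAJC3 (P58IPK), HSPA13 and DNAJB12 were lower in both lines too, at -0.60, -0.49 and -0.46 in SHEP and -0.77, -1.12 and -0.49 in SKNAS. DNAJC10, a disulfide reductase, was called only in SHEP (-0.54, against -0.64 in SKNAS), and DNAJC1 only in SKNAS (-0.40, against -0.09 in SHEP).

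J proteins choose the clients of HSP70. DNAJA1 (chr9:33025273-33039907, plus strand), a main cytosolic partner, ranged from 139 to 180.3 TPM with a median of 159.6 in SHEP MYC-OFF and from 52.6 to 180.5 TPM with a median of 128 in MYC-ON, and fell by 0.45 ± 0.082, adjusted p = 4.26e-06. In SKNAS it did not pass (-0.22 ± 0.11, adjusted p = 0.113). Of the 5 class B genes, 4 fell in SHEP, with a median of -0.87, and 2 in SKNAS (1 fell and 1 rose after rescaling). DNAJB1 (chr19:14514769-14560391, minus strand), the heat-induced HSP40, ranged from 100.1 to 147 TPM with a median of 119 in SHEP MYC-OFF and from 41.3 to 112 TPM with a median of 63.4 in MYC-ON. It was lower in 28 of 28 pairs (-0.87 ± 0.063, adjusted p = 5.17e-17). In SKNAS it stayed within the spread, at 69.4 ± 23.0 and 73.8 ± 28.4 TPM (0.10 ± 0.21, adjusted p = 0.723).

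DNAJB4 (chr1:77979175-78017964, plus strand) had the largest fall of all members in SHEP, from 119 ± 23.3 to 42.8 ± 9.26 TPM (-1.45 ± 0.057, adjusted p = 1.67e-26). In SKNAS it was at 16.6 ± 8.01 and 10.7 ± 6.79 TPM and was not called (-0.59 ± 0.27, adjusted p = 0.0827). DNAJB2 (chr2:219279342-219286898, plus strand), which brings clients to the proteasome in neurons, fell without overlap in SHEP, from 65.6 ± 11.9 to 25.4 ± 7.11 TPM (-1.36 ± 0.056, adjusted p = 9.16e-26). Its fall in SKNAS, -0.36 ± 0.11, adjusted p = 0.017, vanished after rescaling, at 0.0020. DNAJB5 fell in both lines, by 0.87 ± 0.068, adjusted p = 1.23e-15, in SHEP, and in SKNAS from 24.1 ± 11.1 to 7.03 ± 3.19 TPM (-1.47 ± 0.27, adjusted p = 0.000457).

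The 19 class C J proteins had no common direction: 5 rose and 8 fell in SHEP, and 5 rose and 2 fell in SKNAS (8 and 1 after rescaling). DNAJC2 (chr7:103312289-103344830, minus strand), the ribosome-bound partner of HSPA14, ranged from 39.8 to 56.6 TPM with a median of 46.6 in SHEP MYC-OFF and from 69.6 to 121 TPM with a median of 91.8 in MYC-ON. No libraries overlapped (0.93 ± 0.045, adjusted p = 3.53e-23), and in SKNAS the difference was 0.84 ± 0.21, adjusted p = 0.00477. DNAJC6, auxilin, which takes clathrin coats apart with HSPA8, rose in SHEP from 5.63 ± 0.835 to 12.1 ± 1.98 TPM (0.98 ± 0.057, adjusted p = 3.53e-20) and was not called in SKNAS (0.13 ± 0.27, adjusted p = 0.701).

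DNAJC22 (chr12:49346888-49357546, plus strand) fell without overlap in both lines. It ranged from 12.8 to 18.0 TPM with a median of 15.1 in SHEP MYC-OFF and from 4.07 to 7.22 TPM with a median of 5.57 in MYC-ON (-1.28 ± 0.037, adjusted p = 1.87e-31). In SKNAS it ranged from 8.53 to 25.5 TPM with a median of 20.4 in MYC-OFF and from 1.90 to 5.99 TPM with a median of 3.86 in MYC-ON (-1.91 ± 0.15, adjusted p = 1.34e-07). DNAJC12, which serves the aromatic amino acid hydroxylases, ranged from 21.0 to 58.9 TPM with a median of 32 in SKNAS MYC-OFF and from 43.9 to 88.1 TPM with a median of 56.8 in MYC-ON, and rose by 0.94 ± 0.15, adjusted p = 0.000114. In SHEP, at a level of 3.25 TPM, it fell by 0.34 ± 0.067, adjusted p = 1.23e-05. DNAJC4 fell in both lines (-0.69 and -0.75), and DNAJC5, the cysteine string protein of synaptic vesicles, was called lower in SHEP (-0.33) and not in SKNAS (-0.42).

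The small heat shock proteins hold unfolded proteins without using ATP. HSPB1 (chr7:76302673-76304295, plus strand), known as HSP27, was the most abundant member in every group but SHEP MYC-ON. It ranged from 1629.6 to 2686 TPM with a median of 1917 in SHEP MYC-OFF and from 1025 to 2542 TPM with a median of 1888 in MYC-ON, and from 2511 to 5094 TPM with a median of 3123 in SKNAS MYC-OFF and from 2119 to 5175 TPM with a median of 3501 in MYC-ON. The groups overlapped in both lines and it was called in neither (-0.14 ± 0.043, adjusted p = 0.00327, in SHEP, and 0.05 ± 0.15, adjusted p = 0.793, in SKNAS).

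HSPB3, HSPB6 and HSPB7, small heat shock proteins best known from muscle, had means under 1 TPM in SHEP and were not tested there. In SKNAS all 3 fell. HSPB7 (chr1:16014028-16019594, minus strand) ranged from 7.47 to 95.1 TPM with a median of 71.0 in MYC-OFF and from 1.90 to 29.7 TPM with a median of 10.5 in MYC-ON (-2.22 ± 0.29, adjusted p = 1.94e-05). HSPB6 went from 91.2 ± 41.1 to 25.5 ± 12.6 TPM (-1.62 ± 0.27, adjusted p = 0.000199). HSPB3 was apart between the groups, with 3.92 TPM in its lowest MYC-OFF library and 3.33 in its highest MYC-ON library (-1.35 ± 0.17, adjusted p = 1.02e-05). HSPB8, which works with BAG3 to clear damaged muscle proteins, also fell in SKNAS, from 20.5 ± 9.12 to 9.51 ± 5.30 TPM (-1.03 ± 0.27, adjusted p = 0.00575), and did not pass in SHEP (0.04 ± 0.061, adjusted p = 0.558). HSPB11, which despite its name is a protein of cilia transport, was called lower in SHEP (-0.28) and not in SKNAS (-0.01).

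Whether the MYC-ON minus MYC-OFF effect was unlike in the lines was tested as the difference of the effects, SKNAS minus SHEP. The fit takes 1 spread per gene for both lines, although the SKNAS libraries varied more. For HSPA9 the standard error of the MYC effect was 0.22 in SKNAS alone and 0.040 in SHEP alone, and that of the difference was 0.14. Standard errors and p-values of the difference may thus be too small. It was called higher for 12 of 68 members (10.6% of all genes) and lower for 18 (38.3% of all genes). After rescaling the split was 26 higher and 11 lower, so the split depends on how the SKNAS libraries are scaled. The stress-induced members HSPA1A (1.79 ± 0.34, adjusted p = 2.46e-05), HSPA1B (1.42 ± 0.32, adjusted p = 0.000222), DNAJB1 (0.97 ± 0.16, adjusted p = 1.26e-06) and HSPH1 (0.72 ± 0.12, adjusted p = 2.77e-06) were higher in SKNAS relative to SHEP, and after rescaling the values were 2.08, 1.70, 1.25 and 1.00. DNAJC12 (1.29 ± 0.14, adjusted p = 1.28e-11) and DNAJB2 (1.00 ± 0.11, adjusted p = 1.28e-11) went the same way. On the other side were HSPA4L (-1.63 ± 0.18, adjusted p = 1.23e-10), HSPB8 (-1.07 ± 0.19, adjusted p = 6.64e-06) and HSPA2 (-0.90 ± 0.19, adjusted p = 0.000116), the last of which was lost without SHEP series 1 (-0.73, adjusted p = 0.0541). Of the 8 chaperonin subunits CCT2 alone was called in this fit (-0.27 ± 0.078, adjusted p = 0.00382), a call lost without either SHEP series and at 0.01 after rescaling. For HSPD1 the difference was -0.06 ± 0.098, adjusted p = 0.601.

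The lines also differed before activation, in a fit that again takes 1 spread per gene for both lines. In MYC-OFF 29 of 68 members were higher in SKNAS than in SHEP (31.4% of all genes) and 27 lower (43.1% of all genes), or 34 and 22 after rescaling. DNAJC12 was at 3.25 ± 0.909 TPM in SHEP and 31.9 ± 9.35 in SKNAS, a difference of 2.94 ± 0.089, adjusted p = 1.74e-23. HSPA2 was at 2.26 ± 0.320 and 26.3 ± 11.9 TPM (2.85 ± 0.18, adjusted p = 2.99e-15). HSPB8 was at 3.75 ± 1.03 and 20.5 ± 9.12 TPM (2.01 ± 0.16, adjusted p = 9.89e-13). None of these 3 reached in SHEP the median level of SKNAS.

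DNAJB4 had the widest gap the other way, with 119 ± 23.3 TPM in SHEP and 16.6 ± 8.01 in SKNAS (-2.94 ± 0.19, adjusted p = 5.49e-15). DNAJB2 (-1.73 ± 0.084, adjusted p = 5.09e-18) and DNAJB14 (-1.67 ± 0.18, adjusted p = 1.21e-09) followed. The stress-induced HSP70 genes were higher in SKNAS, HSPA1A by 1.77 ± 0.10 and HSPA1B by 0.92 ± 0.14, while the constant HSPA8 was lower, at 1382 ± 100.5 TPM in SHEP and 761 ± 152 in SKNAS (-0.88 ± 0.070), as were HSPH1 (-0.91 ± 0.060), DNAJB1 (-0.87 ± 0.12) and HSF1 (-0.80 ± 0.10). HSPB1 was higher in SKNAS (0.75 ± 0.077). HSPB6, at 0.156 ± 0.125 TPM in SHEP and 91.2 ± 41.1 in SKNAS, and HSPB7, at 0.0727 ± 0.124 and 59.1 ± 31.6, were not tested for this, since they passed the level limit in 1 line alone. The subunits of TRiC were closer: 5 were higher and 2 lower in SKNAS, between -0.58 for TCP1 and 0.55 for CCT8.

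**Figure D3:**
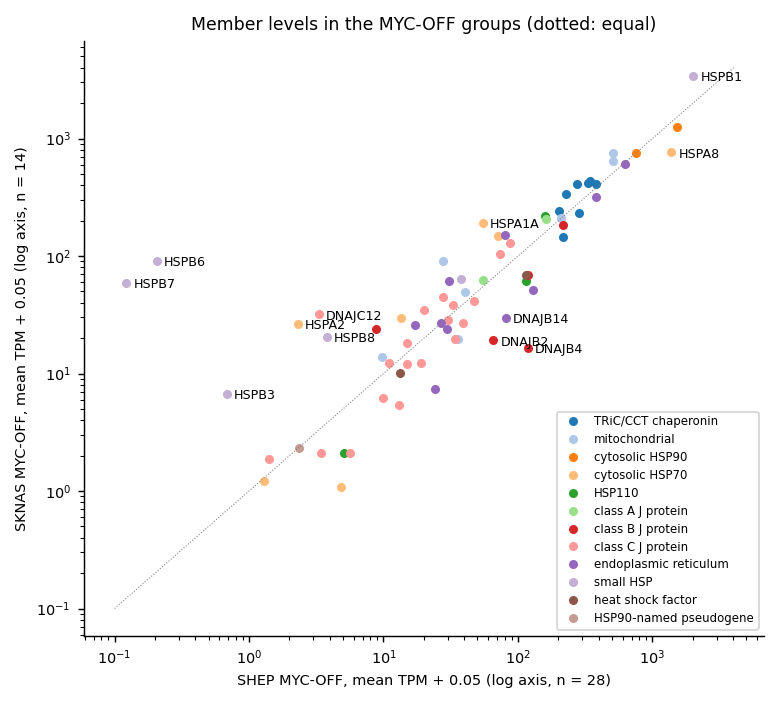
Mean level of each member in SHEP MYC-OFF against SKNAS MYC-OFF, in TPM plus 0.05 on log axes, coloured by role, with a line of equal level. HSPB6 and HSPB7 lie near the SKNAS axis, at 91.2 and 59.1 TPM in SKNAS, and DNAJB4 lies on the SHEP side.

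The next question was whether the members moved over the 2 days of collection. Slopes were fitted as the change of log2(TPM + 1) per 24 h from CT24 to CT76. In SHEP MYC-OFF 1 of 69 members rose (2.66% of all genes) and 4 fell (4.71% of all genes): DNAJC12 rose, and HSPB8 (-0.30 ± 0.064), DNAJB2 (-0.25 ± 0.051), HSPA4L (-0.19 ± 0.063) and HSPB1 (-0.18 ± 0.048) fell. Without series 1 none was called, and without series 2 the 3 calls left were falls. In SHEP MYC-ON 7 rose (16.8% of all genes) and 28 fell (31.1% of all genes), or 11 and 24 after rescaling. The difference of the slopes, MYC-ON minus MYC-OFF, was called higher for 8 members (14.7% of all genes) and lower for 25 (24.7% of all genes).

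The steepest falls in SHEP MYC-ON were those of HSPA1A and HSPA1B. HSPA1A was at 43.8 TPM at CT24 and 5.79 at CT76 in MYC-ON (means of 2 series), and at 40.3 and 59.3 in MYC-OFF. Its slope was -1.31 ± 0.16, adjusted p = 3.4e-10, in MYC-ON, and the slopes differed by -1.47 ± 0.22, adjusted p = 2.93e-07. HSPA1B fell likewise, with a slope of -1.11 ± 0.13 and a difference of -1.16 ± 0.18, adjusted p = 3.79e-07. At CT24 both genes were near their MYC-OFF level, and at CT76 both were below it. The course was not a straight line. In series 1 of MYC-ON, HSPA1A was at 34.1 TPM at CT48, 94.0 at CT52, 40.2 at CT60 and 4.81 at CT72, and in series 2 at 37.0, 42.7, 9.49 and 5.16 TPM. Both series thus stood higher at CT52 than at CT48 and fell after it. HSPA1B had the same turn, from 62.5 to 162 TPM between CT48 and CT52 in series 1 and from 51.7 to 61.5 in series 2. Since reads may have been split between these genes, HSPA1B may not be a separate case. The turn was read from the courses and was not tested.

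HSPA8 was at 2141 TPM at CT24 and 744 at CT76 in MYC-ON, and at 1354 and 1375 in MYC-OFF. Its slope in MYC-ON was -0.56 ± 0.054, adjusted p = 3.61e-13. Most of the way was covered late: at CT56 the series were still at 1887 and 1728 TPM. MYC-ON was above MYC-OFF in 13 of 14 pairs from CT24 to CT48 and in 5 of 14 from CT52 to CT76. The mean from CT24 to CT48 was 1813 ± 243 TPM in MYC-ON and 1369 ± 112 in MYC-OFF, and from CT52 to CT76 1303 ± 422 and 1396 ± 89.5 (SD, n = 14). The late MYC-ON libraries ran from 1887 down to 648 TPM, from above to below the whole MYC-OFF range. The split at CT48 was chosen after the courses were seen, so these values are a description.

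HSPE1 was at 1145 TPM at CT24 and 439.8 at CT76 in MYC-ON, against 515 and 549.6 in MYC-OFF, with a slope of -0.64 ± 0.051, adjusted p = 6.9e-16. HSPD1, its partner, fell less, from 1212 to 687 TPM (-0.26 ± 0.035, adjusted p = 8.61e-09), and stayed above MYC-OFF in 14 of 14 late pairs, where HSPE1 did in 10. DNAJA1 went from 179.7 to 60.4 TPM (-0.64 ± 0.046, adjusted p = 2.63e-17), HSPH1 from 147 to 53.4 (-0.50 ± 0.048, adjusted p = 3.27e-13) and HSP90AA1 from 1243 to 459.8 (-0.41 ± 0.052, adjusted p = 1.24e-09). DNAJB1, already lower in MYC-ON at the start, had a slope of -0.45 ± 0.049, adjusted p = 2.96e-11. With the same split, as a description, the effect went from 1.11 to 0.34 for HSPE1, from -0.07 to -0.82 for DNAJA1, from 0.06 to -0.44 for HSPH1, from -0.37 to -1.86 for HSPA1A and from 0.42 to 0.11 for HSP90AA1.

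**Figure D4:**
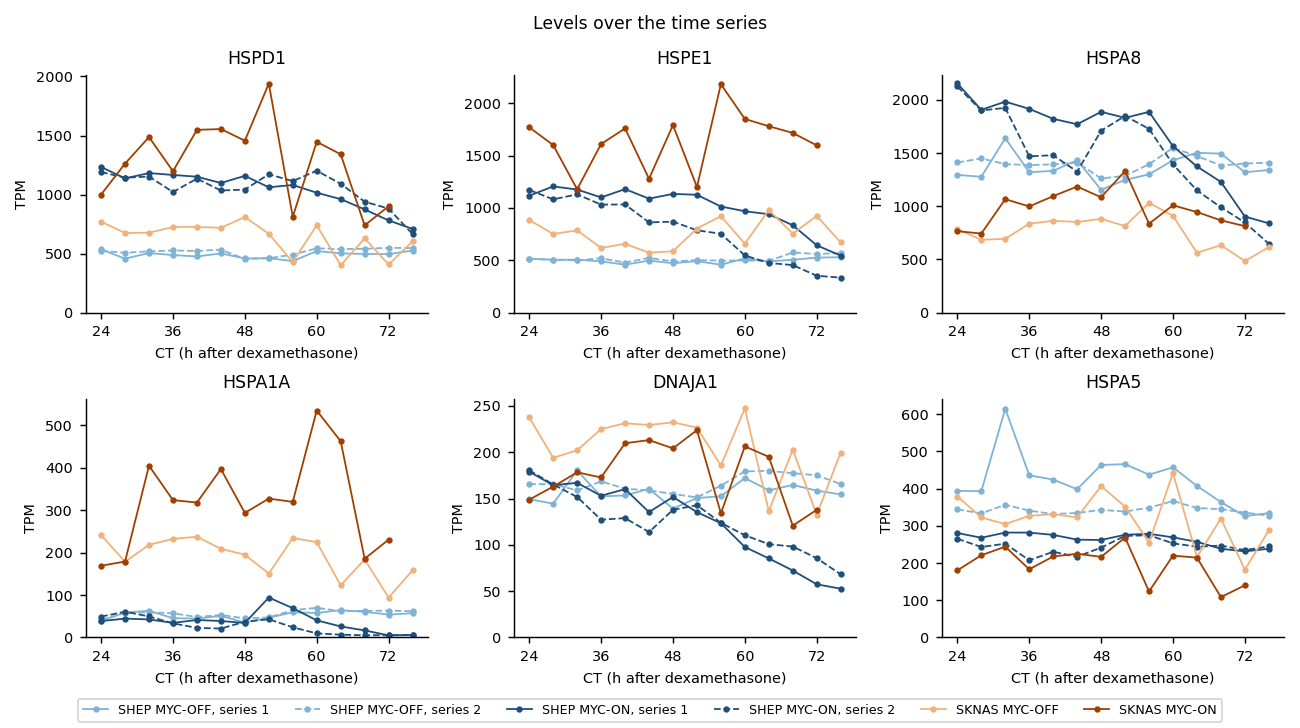
Level in TPM of HSPD1, HSPE1, HSPA8, HSPA1A, DNAJA1 and HSPA5 against circadian time in h, 1 line per series, in SHEP and SKNAS. In SHEP MYC-ON HSPA8 falls from 2141 to 744 TPM and crosses the MYC-OFF series.

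By role, 5 of 8 chaperonin subunits fell over time in SHEP MYC-ON, with a median slope of -0.17, and CCT6A (-0.28 ± 0.029) and TCP1 (-0.24 ± 0.027) fell fastest. CCT7 (-0.06 ± 0.024), CCT8 (-0.07 ± 0.026) and CCT4 (-0.08 ± 0.024) did not pass. Of the cytosolic HSP70 genes 5 of 7 fell, and of the mitochondrial members 4 of 7 fell and 1 rose, DNAJC19 (0.27 ± 0.045). HSP90AB1, with -0.08 ± 0.024, and HSPA9, with -0.03 ± 0.033, were not called, nor was HSPA5, with -0.05 ± 0.038, so the gaps of these to MYC-OFF had no called drift. Of the 10 ER members 1 rose and 3 fell, and HSF2 rose (0.28 ± 0.054).

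In SKNAS, limma called no slope in MYC-OFF (0 of 71 higher and 0 lower, against 0.0504% and 0.101% of all genes) or in MYC-ON (0 and 0, against 0.0360% and 0.130%). At an unadjusted limma p under 0.05 were 21 members in MYC-OFF and 2 in MYC-ON. The share of all genes at that unadjusted limit is not given here, so these counts only describe the members. The SKNAS MYC-ON slopes, fitted from CT24 to CT72 in 1 series, were 0.18 ± 0.19 for HSPA1A, 0.01 ± 0.13 for HSPA8, 0.10 ± 0.13 for HSPE1, -0.09 ± 0.13 for DNAJA1 and 0.29 ± 0.12 for HSPH1. For these 5 genes the SHEP MYC-ON slopes, from -1.31 for HSPA1A to -0.50 for HSPH1, lay below the SKNAS slopes by several of the SKNAS standard errors. HSP90AA1, at -0.23 ± 0.20, was closer to its SHEP slope of -0.41. HSPD1, at -0.20 ± 0.16, was also close to its SHEP slope, while HSPA1B (-0.07 ± 0.31) and DNAJB1 (0.01 ± 0.24) lay above theirs. The 5 genes were taken from the steep falls in SHEP and do not stand for all members. The low-median SKNAS libraries were mostly late, at CT56, CT64 and CT72 in MYC-OFF and at CT24, CT56, CT68 and CT72 in MYC-ON. SKNAS slopes after rescaling are not given here, and the part of the library centre in them was not tested. The difference of the slopes between the lines was not tested.

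**Figure D5:**
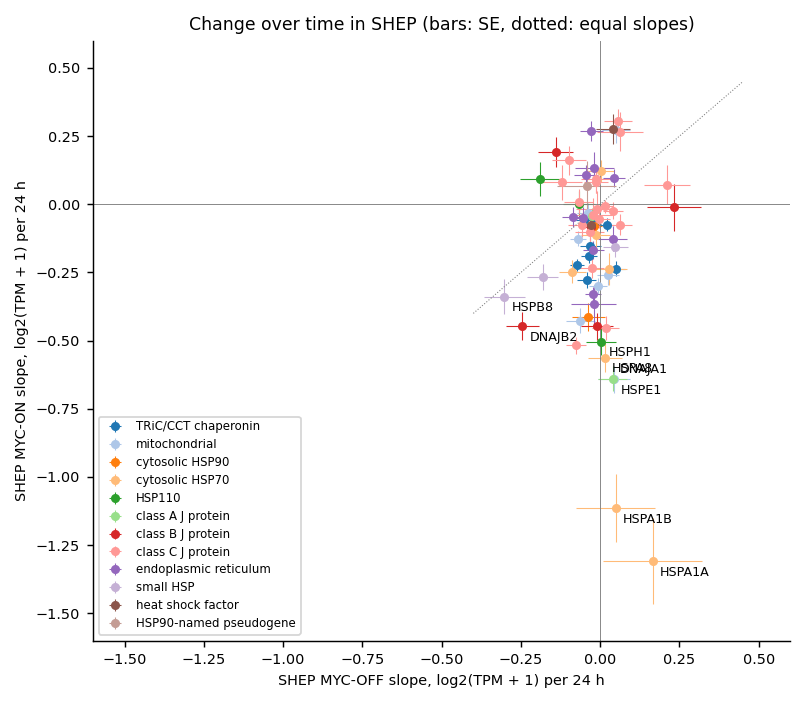
Slope of each member in SHEP MYC-OFF (x axis) against SHEP MYC-ON (y axis), in log2(TPM + 1) per 24 h; the dotted line marks equal slopes. HSPA1A and HSPA1B sit lowest, at -1.31 and -1.11 in MYC-ON.

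A 24 h rhythm was tested in SHEP as a cosine and a sine term on top of the linear trend of each series. The limma F test called 0 of 69 members in MYC-OFF (0.0905% of all genes), 0 in MYC-ON (0.0209%) and 0 for the difference between them (0%), with 3, 5 and 0 members at an unadjusted p under 0.05. How many of all genes were under that unadjusted limit is not given here. The members with the lowest p in MYC-OFF were HSPB1 (adjusted p = 0.353), HSPA1A (0.353) and DNAJB4 (0.477).

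Partners of these chaperones that the naming rule leaves out were taken as a list of 38 genes. In SHEP 23 of the 38 rose and 7 fell, and in SKNAS 13 rose and 3 fell, against the shares of all genes given above. All 8 mitochondrial folding and quality control genes rose in SHEP, with a median of 0.95, and 5 of 8 in SKNAS. Among them TRAP1, the mitochondrial HSP90, went from 141 ± 7.79 to 485 ± 98.2 TPM in SHEP (1.75 ± 0.053, adjusted p = 9.33e-31) and from 229 ± 29.7 to 574 ± 140.1 in SKNAS (1.28 ± 0.14, adjusted p = 2.86e-06). GRPEL1, the exchange factor of HSPA9, rose by 1.34 ± 0.030 in SHEP and 1.28 ± 0.11 in SKNAS. CLPP and LONP1, proteases of the matrix, rose by 0.93 and 0.98 in SHEP and by 1.01 and 0.68 in SKNAS, and HSCB, the J protein of iron-sulfur cluster assembly, by 0.75 and 0.68.

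Of 10 HSP90 cochaperones 9 rose and 1 fell in SHEP, and 4 rose in SKNAS, with FKBP4, an immunophilin of steroid receptors, at 0.96 ± 0.043 and 0.88 ± 0.14. Of the 6 prefoldin subunits, which hand actin and tubulin to TRiC, 4 rose and 1 fell in SHEP and 2 rose and 1 fell in SKNAS. In SHEP PFDN2 went from 258 ± 26.0 to 499 ± 69.5 TPM (0.95 ± 0.042), in SKNAS from 489 ± 91.3 to 1038 ± 139 (1.07 ± 0.11), and PFDN4 rose by 0.72 and 0.72. Of 11 HSP70 cochaperones 2 rose and 4 fell in SHEP, and 2 rose and 1 fell in SKNAS. STUB1, the ubiquitin ligase CHIP, rose in both (0.86 ± 0.036 and 1.73 ± 0.16). Of 3 phosducin-like chaperonin cofactors, none rose and 1 fell in each line.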

How the data were processed

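RNA-seq of polyadenylated RNA (NovaSeq, paired reads) covered 83 libraries in 4 groups, given by the labels as cell line, condition and time. The authors quantified reads with Salmon 1.3.0 on Gencode transcripts of GRCh38 and summed them to genes with Tximport, and deposited TPM, the abundance of transcripts per length scaled to a sum of 1000000 per library. TPM keep no read depth, so the depth of each library is unknown and no counting error can be given. The study's own test was a count model with time and condition, and since the table holds no counts, limma 3.58.1 (R 4.3.3) was used here on log2(TPM + 1), with a pseudocount of 1 that understates the change of low genes. Genes with a mean of at least 1 TPM over a line's libraries (in both lines, for comparisons of lines) were tested, Benjamini-Hochberg adjustment ran over all of them, and a call needed a log2 difference of 0.15 or more and an adjusted p no higher than 0.05. The table repeats 961 symbols, and gene identifiers were used. No per-sample column was left out.

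The MYC effect was fitted per line with CT as a factor, the difference of effects over all groups, slopes with an intercept per series, and rhythm as a fixed 24 h cosinor with an F test at an adjusted p under 0.05, since the study's oscillation tool was not used here. The fits were tested on simulated data. The 2 SHEP series share their number across conditions, and the labels call them replicates: the difference between series in MYC-OFF and in MYC-ON correlated over 14362 genes (Pearson r = 0.4886, with 66.8% of genes of the same sign).

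The members and lists were chosen with earlier results of these data known. Named were the TRiC subunits, the main mitochondrial, cytosolic and ER chaperones and both heat shock factors, the 5 members of largest called rise and fall per line, the 3 of largest line difference and SHEP MYC-OFF slope in each direction and the 3 of lowest rhythm p; other members named in passing were chosen after their values were seen. Partner genes were named where called past a log2 change of 0.66 in both lines. Alternatives were a pseudocount of 0.1, other limits on low values, rescaling by the median of ratios, the library median as a covariate, leaving out the low-median SKNAS libraries (median under 3.3), CT24 or a SHEP series, the series as a block, and series means as replicates. The split of SHEP at CT48 was chosen after seeing the data. Gene coordinates come from Gencode 44 on GRCh38, promoters from RefSeq. Some marker genes are not reported here.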

Additional observations from a re-analysis of the deposited data

Results flagged for a closer look

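The MYC effect differed between SKNAS and SHEP, by a limma test of the difference itself over all 83 libraries, for 18 of the named members. Of all genes, 10.6% were called higher and 38.3% lower. Some members were named for a large MYC effect, so the count itself is no result about the members. In each pair of numbers here the first is the difference SKNAS minus SHEP in log2(TPM + 1) and the second its Benjamini-Hochberg adjusted p. The effect was higher in SKNAS for HSPA1A (1.79, 2.46e-05), HSPA1B (1.42, 0.000222), DNAJC12 (1.29, 1.28e-11), DNAJB2 (1.00, 1.28e-11), DNAJB1 (0.97, 1.26e-06), DNAJB4 (0.86, 0.000192), HSPH1 (0.72, 2.77e-06) and HSP90AA1 (0.31, 0.0437). It was lower in SKNAS for HSPA4L (-1.63, 1.23e-10), HSPB8 (-1.07, 6.64e-06), HSPA2 (-0.90, 0.000116), DNAJC6 (-0.85, 0.000207), DNAJC22 (-0.63, 1.69e-06), DNAJB5 (-0.60, 0.01), HSF2 (-0.52, 0.0018), HSPA9 (-0.38, 0.0253), HSP90B1 (-0.32, 0.0187) and CCT2 (-0.27, 0.00382). The fit takes 1 spread per gene for both lines, so these p-values may be too small where SKNAS libraries varied more. Over all genes the median of this difference was -0.24, and 0.01 after rescaling. After rescaling CCT2 was at 0.01, and HSPA9 (-0.10) and HSP90B1 (-0.04) were no longer called. With the library median as a covariate HSPA9 was at 0.01, and the calls for CCT2 (-0.07), HSF2 (-0.22) and DNAJB5 (-0.14) were lost. Without the low-median SKNAS libraries HSP90B1 was lost, at -0.06, and with no filter on low values HSP90AA1, at 0.31 (adjusted p = 0.0597). Calls for CCT2, HSPA9, HSP90AA1, HSP90B1 and DNAJB5 were lost without either SHEP series, where the values were -0.22 and -0.32 (CCT2), -0.47 and -0.30 (HSPA9), 0.44 and 0.18 (HSP90AA1), -0.41 and -0.23 (HSP90B1), -0.46 and -0.74 (DNAJB5) without series 1 and without series 2. HSPA2 was lost without series 1, at -0.73, and HSF2 and DNAJB4 without series 2, at -0.39 and 0.65.

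In SHEP the slope over time differed between MYC-ON and MYC-OFF, again tested as the difference, for 20 named members. The shares of all genes were 14.7% called higher and 24.7% called lower. Some members were named for their effects in these data, so this count too only describes them. The numbers are the difference of the slopes, MYC-ON minus MYC-OFF in log2(TPM + 1) per 24 h, and the adjusted p from limma. The slope was lower in MYC-ON for HSPA1A (-1.47, 2.93e-07), HSPA1B (-1.16, 3.79e-07), HSPE1 (-0.69, 3.79e-11), DNAJA1 (-0.68, 3.51e-12), HSPA8 (-0.58, 1.45e-08), HSPH1 (-0.51, 2.01e-08), DNAJB1 (-0.44, 9.25e-07), HSP90AA1 (-0.38, 3.69e-05), DNAJB14 (-0.35, 0.00401), TCP1 (-0.29, 2.51e-08), HSPD1 (-0.28, 5.22e-06), HSPA2 (-0.27, 0.00695), CCT6A (-0.23, 5.59e-06), DNAJB2 (-0.20, 0.0199), CCT3 (-0.16, 0.000292) and CCT2 (-0.15, 9.08e-05). It was higher in MYC-ON for DNAJB5 (0.33, 0.00043), HSPA4L (0.28, 0.00859), DNAJC6 (0.26, 0.00365) and HSF2 (0.24, 0.00932). Without series 2 the calls for HSF2 (0.09), HSPA4L (0.12), DNAJB2 (-0.03) and HSPA2 (-0.19) were lost, and without series 1 that for CCT2 (-0.12). Those for DNAJB14 (-0.36 and -0.33) and DNAJC6 (0.22 and 0.30) were lost without either series.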

How the results depend on the processing

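Over the named members, 1382 values kept direction and side of the threshold under the alternatives, 73 lost a call, 52 gained 1 and 12 changed direction. Changes of direction were HSPH1 in SHEP at CT24 to CT48 alone (0.058). In the SKNAS MYC effect they were DNAJB2 after rescaling (0.0020) and HSF2 (0.28) and HSPA4L (0.36) with the library median as a covariate. In the difference of effects they were CCT2 (0.012), CCT7 (0.28) and HSPD1 (0.22) after rescaling, and HSPA9 (0.011), DNAJC2 (0.28) and DNAJB14 (0.44) with the covariate. In the line difference in MYC-OFF they were HSPA9 (0.18) and DNAJC2 (0.0019) without the low-median libraries. Counts of members called moved by over 1.5 times for the SKNAS MYC effect, with 36 higher under the covariate. For the difference of effects, 26 were higher and 11 lower after rescaling, 23 and 9 under the covariate, and 6 to 9 were lower with a SHEP series left out. For the SHEP MYC-OFF slope, 0 were higher with a pseudocount of 0.1, 2 after rescaling, and 0 to 0 without a series, and 0 to 3 were lower without a series. For the MYC-ON slope 11 were higher after rescaling, and for the slope difference 4 to 7 were higher without a series. Rescaling and the covariate shift the SKNAS genes as a whole, by construction; the cause of the other moves was not tested.

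With the series as a replicate block, 30 members were higher and 28 lower in the SHEP MYC effect, and the block changed none of these counts. With series means as the replicates, 26 were higher and 21 lower, from fewer samples. Depth is unknown, so for members near 1 TPM a missed difference is one not detectable here.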

Other observations

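Members called in neither line included the J protein DNAJB6, which keeps polyglutamine proteins from clumping. It was at 216 ± 13.1 and 196 ± 14.8 TPM in SHEP MYC-OFF and MYC-ON (-0.14 ± 0.027 on the log2 scale), and at 184 ± 63.8 and 139 ± 52.7 TPM in SKNAS (-0.39 ± 0.19). In SHEP the size of the difference fell short of the limit of 0.15, and in SKNAS its adjusted p was 0.0945. HSP90AB2P, a pseudogene of HSP90AB1 whose reads may belong to its parent, was at 2.32 ± 0.626 TPM in SHEP MYC-OFF and 4.89 ± 1.97 in MYC-ON, where HSP90AB1 was at 1512 and 2557 TPM. Summed over all 72 members, SHEP held 12514 ± 483 TPM in MYC-OFF and 15338 ± 1815 in MYC-ON, and SKNAS 14033 ± 1149.8 and 17912 ± 1488 (mean and SD).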
